A study of Mus musculus with 12 samples.

Results

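The genes described here are 9 markers of hippocampal interneurons, the inhibitory cells that are scattered among the pyramidal and granule cells: Sst, Pvalb, Npy, Vip, Cck, Calb2, Reln, Lhx6 and Htr3a. They were taken by gene symbol from a list drawn up for this description, as 9 of the 23329 genes in the count files. Their levels were no part of the rule, but the list was drawn up with earlier results of these data known. The series profiled hippocampal polyadenylated RNA of adult C57BL/6 mice that lacked NONO (knockout, KO) and of wild-type (WT) mice. NONO is a nuclear RNA- and DNA-binding protein that has also been described as a partner of the co-activators of CREB, the cAMP-responsive transcription factor. The 12 libraries formed 4 groups of 3: KO under the label CT22, WT under CT22, KO under CT10 and WT under CT10. The labels do not spell out CT, and the knockout allele, the age beyond adult and any pooling of animals are not given in the sources used here. Since separate animals per library are nowhere stated, every p-value below reflects the scatter between libraries, part of which may be technical.

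Hippocampal interneurons use GABA and are sorted into classes by the peptides and calcium-binding proteins they make. Cells born in the medial ganglionic eminence need the transcription factor LHX6 and become parvalbumin or somatostatin cells, while cells born in the caudal eminence carry the serotonin receptor subunit HTR3A and include the VIP cells and the CCK basket cells. Parvalbumin cells inhibit the cell bodies of principal neurons, somatostatin cells their dendrites, and many VIP cells inhibit other interneurons. Several of the genes are not private to interneurons: mouse pyramidal cells also make Cck, Cajal-Retzius cells make Reln and Calb2, and mossy cells of the mouse hilus make Calb2.

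Between 4435606 and 10911046 counts were assigned to genes per library. Nono, the targeted gene, stood at 0.29 ± 0.244 CPM in KO and 163.5 ± 7.38 CPM in WT (SD, n = 6 each; CPM is the count relative to a library total that TMM made comparable), so every library had the Nono level of its genotype label. In a pair of KO libraries the clock genes went against the CT label. Dbp, a clock-controlled transcription factor, stood at 90.9 CPM in the library labelled KO CT22 replicate 1, against 32.3 and 32.9 CPM in the other KO CT22 libraries and 43.2 to 59.6 CPM in WT CT22. The library labelled KO CT10 replicate 3 had 33.6 CPM of Dbp, against 93.7 and 105.6 CPM in the other KO CT10 libraries and 70.5 to 95.03 CPM in WT CT10. Nr1d1, which encodes the clock repressor REV-ERBα, had the same order, with 124.6 CPM in the first of these libraries and 72.7 CPM in the second. Both libraries were kept under their labels, and the log2 changes of KO against WT at each CT label are also given without them.

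All 9 genes were read in every library, with at least 48 counts, and passed the filter on low counts. Per transcript length, Sst and Cck were the most abundant of the 9, at 1101 ± 282 and 1013 ± 80.7 TPM, the authors' level per transcript length (SD, n = 12 for each gene in this paragraph). Sst exceeded Cck in 8 of 12 libraries, so their order lay within the spread. Npy followed at 295 ± 32.0 TPM, below Cck in 12 of 12 libraries. Pvalb at 91.8 ± 20.5 TPM and Calb2 at 79.2 ± 17.4 TPM formed the next level, and Pvalb was the higher of the pair in 9 libraries. The lowest level was shared by Vip (24.1 ± 7.43 TPM), Htr3a (18.7 ± 2.86 TPM), Lhx6 (18.4 ± 3.16 TPM) and Reln (13.98 ± 3.73 TPM). Within it Vip exceeded Htr3a in 9 libraries, Htr3a exceeded Lhx6 in 5, and Lhx6 exceeded Reln in 11. The peptide precursors Sst and Cck thus stood at the 99.4th and 99.3rd percentile of all 14131 genes tested by mean TPM, and Reln at the 36.3rd.

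**Figure D1:**
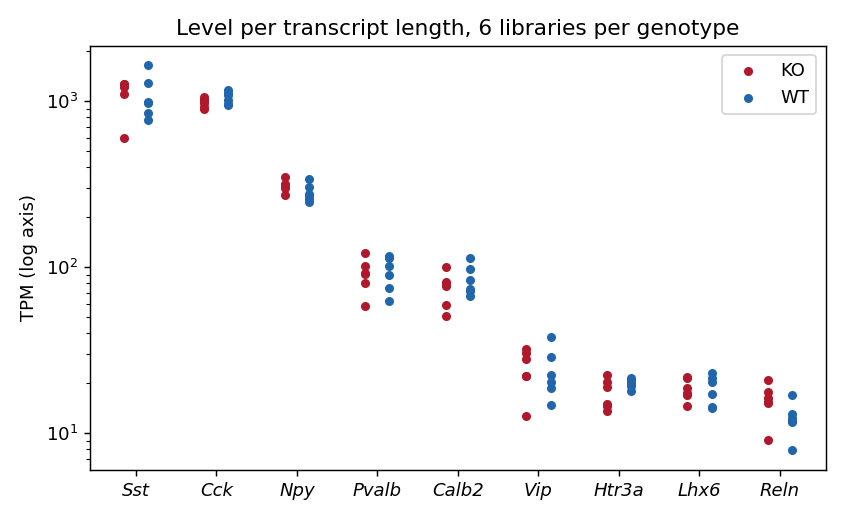
Level of each interneuron marker in TPM (log axis) in the 6 KO and 6 WT libraries, ordered by the mean over all 12 libraries; each dot is a library. Sst and Cck sit at the top (means of 1101 and 1013 TPM) and Vip, Htr3a, Lhx6 and Reln at the bottom (13.98 to 24.1 TPM), and the KO and WT dots of each gene overlap.

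The neuropeptide precursors were examined first. Sst encodes somatostatin, a peptide that dampens release and excitability. In the CT22 libraries Sst stood at 124, 276 and 259 CPM in KO, against 344, 215 and 296 CPM in WT. In the CT10 libraries it stood at 233, 281 and 262 CPM in KO, against 163, 213 and 185 CPM in WT. At CT10 every KO library lay above every WT library, whereas at CT22 the groups overlapped and KO replicate 1 was the lowest of all 12 libraries. The log2 change of KO against WT was −0.38 at CT22 (95% interval −0.996 to 0.23) and 0.47 at CT10 (−0.15 to 1.08), and neither passed edgeR's quasi-likelihood test (Benjamini-Hochberg adjusted p = 0.612 and 1). In a piece of tissue, fewer cells of a type and less RNA per cell cannot be told apart, here and for the other 8 genes.

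Vip encodes vasoactive intestinal peptide, which raises cAMP in its target cells. At CT22 it stood at 7.21, 16.1 and 17.2 CPM in KO, against 21.8, 17.3 and 13.9 CPM in WT. At CT10 the values were 12.7, 13.6 and 18.8 CPM in KO, against 11.1, 11.9 and 8.81 CPM in WT. The layout resembled that of Sst: the CT10 groups did not overlap, the CT22 groups did, and the library labelled KO CT22 replicate 1 was again the lowest of 12. Its log2 change was −0.42 at CT22 (95% interval −1.04 to 0.19) and 0.50 at CT10 (−0.13 to 1.13), with adjusted p = 0.579 and 1 in edgeR's quasi-likelihood test. Vip was read at 60 to 218 counts per library, so counting error is larger for it than for Sst, which had 1232 to 3440.

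Npy encodes neuropeptide Y, an inhibitory peptide of somatostatin cells and neurogliaform cells. It stood at 50.3, 61.9 and 57.6 CPM in KO and 49.9, 54.8 and 69.5 CPM in WT at CT22. At CT10 it stood at 59.3, 71.3 and 57.5 CPM in KO and 47.1, 58.5 and 49.9 CPM in WT. The groups overlapped under both labels, with 2 of the 3 KO libraries above all WT libraries at CT10. The log2 change was −0.05 at CT22 (95% interval −0.33 to 0.24) and 0.27 at CT10 (−0.02 to 0.55), with adjusted p = 0.920 and 1 in edgeR's quasi-likelihood test.

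Cck encodes cholecystokinin, which CCK basket cells release and whose mRNA is also found in mouse pyramidal cells. It stood at 240.2, 234 and 230.3 CPM in KO and 230.0, 279 and 311 CPM in WT at CT22. At CT10 it stood at 221, 279.6 and 257 CPM in KO and 251, 238 and 282 CPM in WT. The KO CT22 libraries lay within a narrow band at the lower end of the WT range, and the groups overlapped under both labels. The log2 change was −0.22 at CT22 (95% interval −0.46 to 0.02) and −0.02 at CT10 (−0.26 to 0.22), with adjusted p = 0.480 and 1 in edgeR's quasi-likelihood test.

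The promoters of Sst, Vip and Cck are shown because they hold the core of the cAMP response element to which CREB binds, TGACG on either strand; the full palindromic element is TGACGTCA. Sequences are the 250 bases before the RefSeq gene start (GRCm38.p6), 5′ to 3′ on the gene's own strand, with the match in capitals. Sst lies at chr16:23890845-23891094 (minus strand), Vip at chr10:5638968-5639217 (plus strand) and Cck at chr9:121495695-121495944 (minus strand).
Sst: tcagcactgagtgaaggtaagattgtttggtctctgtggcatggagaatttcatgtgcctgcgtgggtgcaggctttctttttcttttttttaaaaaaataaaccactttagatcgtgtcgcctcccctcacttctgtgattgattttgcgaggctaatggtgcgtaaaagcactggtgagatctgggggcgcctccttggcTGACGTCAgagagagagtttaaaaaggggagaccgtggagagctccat
Vip: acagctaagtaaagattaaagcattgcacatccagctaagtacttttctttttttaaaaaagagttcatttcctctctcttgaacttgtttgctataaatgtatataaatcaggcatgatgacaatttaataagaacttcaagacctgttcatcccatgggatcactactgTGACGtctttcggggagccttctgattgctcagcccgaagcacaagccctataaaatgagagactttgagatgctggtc
Cck: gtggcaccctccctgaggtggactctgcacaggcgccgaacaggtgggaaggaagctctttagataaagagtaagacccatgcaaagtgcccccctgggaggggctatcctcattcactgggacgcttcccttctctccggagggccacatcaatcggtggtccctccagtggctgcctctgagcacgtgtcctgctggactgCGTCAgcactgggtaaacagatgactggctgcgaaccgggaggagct
The Sst promoter held the full palindrome, whose first base lay 48 bases before the start. The Vip promoter held TGACG beginning 79 bases before the start, and the Cck promoter held it on the opposite strand, as CGTCA, beginning 47 bases before the start. Across 32851 promoters of the same length TGACG on either strand occurred in 17.8% and TGACGTCA in 1.55%. Promoters of 7 of the 9 genes were matched, 10 in all, and neither motif occurred in those of Npy, Pvalb, Reln and Lhx6. A match describes the letters only and shows neither binding nor a cause.

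**Figure D2:**
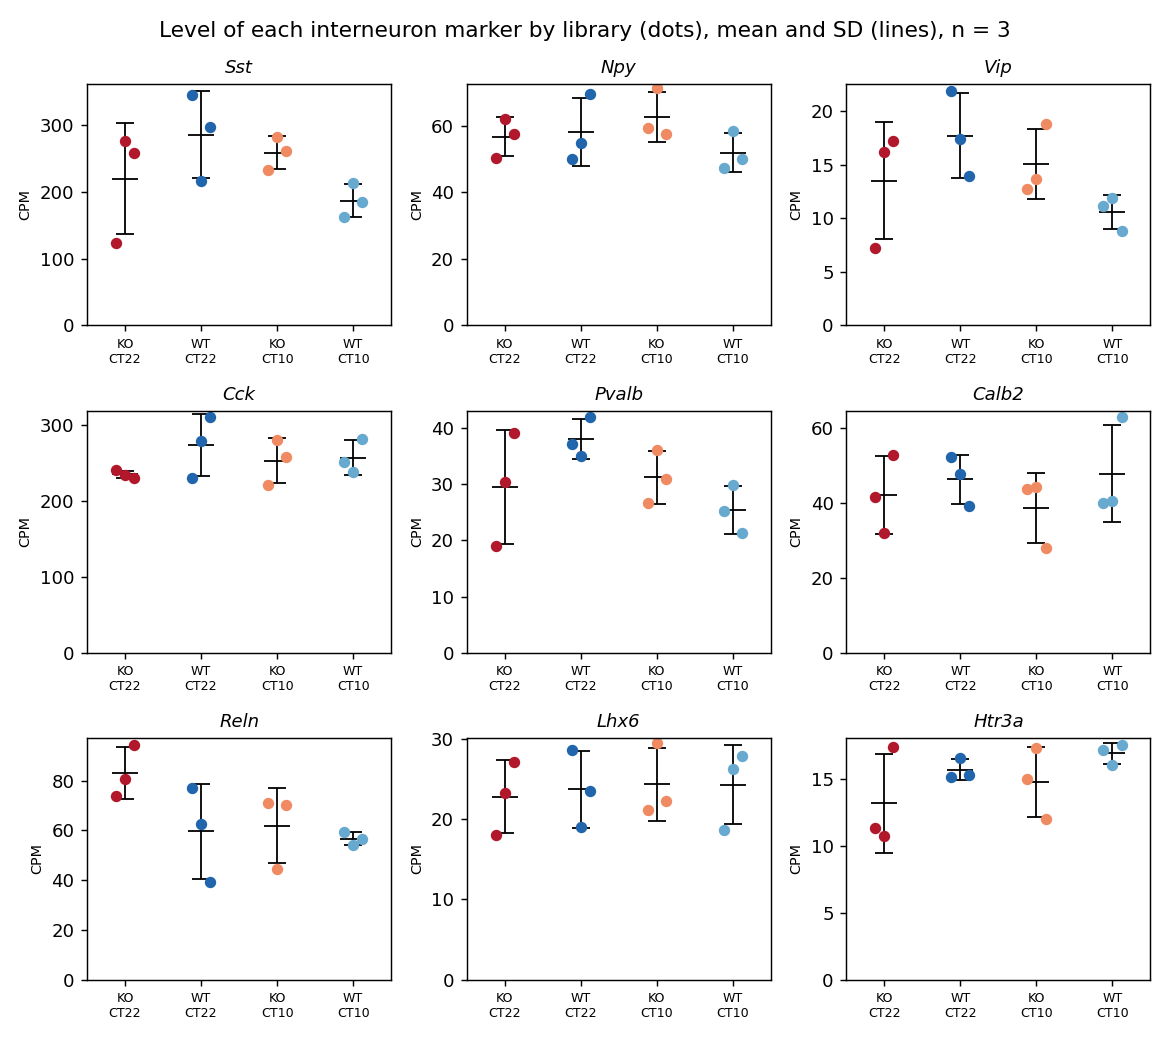
CPM of each interneuron marker in every library, by group from KO CT22 to WT CT10; dots are libraries, and lines give the mean and SD (n = 3). For Sst, Vip and Pvalb the WT CT22 libraries lie above the WT CT10 libraries, and 1 KO CT22 library lies lowest.

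The calcium-binding proteins came next. Pvalb encodes parvalbumin, the calcium buffer of fast-spiking basket and chandelier cells. At CT22 it stood at 18.9, 30.5 and 39.3 CPM in KO, against 37.2, 35.1 and 42.0 CPM in WT. At CT10 it stood at 26.6, 36.2 and 30.9 CPM in KO, against 25.2, 29.9 and 21.3 CPM in WT. The lowest of the 12 values was again that of the library labelled KO CT22 replicate 1, and the genotypes overlapped under both labels. The log2 change was −0.38 at CT22 (95% interval −0.85 to 0.09) and 0.28 at CT10 (−0.20 to 0.76), with adjusted p = 0.537 and 1 in edgeR's quasi-likelihood test.

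Calb2 encodes calretinin, the calcium buffer of interneuron-selective cells. Its levels at CT22 were 41.4, 31.8 and 52.6 CPM in KO and 52.0, 47.5 and 39.0 CPM in WT. At CT10 they were 43.7, 44.2 and 27.9 CPM in KO and 40.0, 40.5 and 62.7 CPM in WT. No group stood apart, and the highest value (WT CT10 replicate 3) and the lowest (the library labelled KO CT10 replicate 3) both fell under CT10. The log2 change was −0.12 at CT22 (95% interval −0.63 to 0.39) and −0.30 at CT10 (−0.82 to 0.21), with adjusted p = 0.865 and 1 in edgeR's quasi-likelihood test.

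Reln encodes reelin, a large secreted protein that binds the receptors VLDLR and LRP8 and is made in the adult by neurogliaform and other interneurons. At CT22 it stood at 73.8, 80.7 and 94.3 CPM in KO, against 76.9, 62.7 and 39.2 CPM in WT. At CT10 it stood at 70.8, 44.4 and 70.3 CPM in KO, against 59.5, 54.2 and 56.4 CPM in WT. Of the CT22 libraries, 2 of 3 in KO lay above all in WT, with WT replicate 3 the lowest of the 12. The log2 change was 0.48 at CT22 (95% interval −0.02 to 0.98) and 0.13 at CT10 (−0.37 to 0.64), with adjusted p = 0.473 and 1 in edgeR's quasi-likelihood test. Averaged over both labels it was 0.31 (SE 0.16, adjusted p = 0.802 in the same edgeR model), and it ranged from 0.19 without WT CT22 replicate 3 to 0.42 without WT CT22 replicate 1. At CT22 the same omissions gave 0.25 and 0.70.

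Lhx6, the transcription factor of medial eminence interneurons, stood at 18.0, 23.3 and 27.1 CPM in KO CT22 and 28.6, 19.0 and 23.6 CPM in WT CT22. It stood at 21.2, 29.5 and 22.3 CPM in KO CT10 and 18.7, 26.2 and 27.9 CPM in WT CT10. The 4 groups covered nearly the same range. The log2 change averaged over both labels was −0.03 (95% interval −0.34 to 0.27), with adjusted p = 0.974 in edgeR's quasi-likelihood test.

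Htr3a, the ion channel subunit that lets serotonin excite caudal eminence interneurons, stood at 11.3, 10.8 and 17.4 CPM in KO CT22 and 15.1, 16.6 and 15.3 CPM in WT CT22. It stood at 14.96, 17.3 and 12.005 CPM in KO CT10 and 17.1, 16.04 and 17.5 CPM in WT CT10. The WT libraries lay close together within each label, and the KO libraries spread to both sides or below. The averaged log2 change was −0.22 (95% interval −0.48 to 0.05), with adjusted p = 0.806 in edgeR's quasi-likelihood test.

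Taken over genotype, 0 of the 9 genes passed an adjusted p of 0.05 in edgeR's quasi-likelihood test of KO against WT averaged over the CT labels, where 0.0212% of the 14131 genes tested passed. At an unadjusted p under 0.05 the count was also 0 of 9, against 6.35% of all genes. The averaged log2 changes of the genes not yet given were 0.04 for Sst (95% interval −0.39 to 0.47), 0.04 for Vip (−0.40 to 0.48), −0.05 for Pvalb (−0.38 to 0.29), 0.11 for Npy (−0.09 to 0.31), −0.12 for Cck (−0.29 to 0.05) and −0.21 for Calb2 (−0.58 to 0.15). The widest of these intervals were those of Vip and Sst. Of the 9, 4 had a positive and 5 a negative log2 change, where 51.8% of all genes had a positive one, with a median of −0.03, beside 0.01 over all genes tested. In the authors' deposited table of KO against WT, Reln had a log2 ratio of 0.31 (p = 0.0409, adjusted p = 0.830), and the other 8 genes had adjusted p of 0.923 or more. That table was made from the same 12 libraries.

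By label, 0 of 9 passed the adjusted threshold at CT22 (0.0142% of all genes did) and 0 of 9 at CT10 (0.00708%), in edgeR's quasi-likelihood test, and 0 of 9 also had an unadjusted p under 0.05, against 10.9% of all genes at CT22 and 3.09% at CT10. DESeq2 and limma-voom called 0 of 9 by adjusted p in each of these comparisons. At an unadjusted p under 0.05 each of them had 1 gene at CT22 and 0 at CT10, and DESeq2 had 1 and limma-voom 0 in the averaged comparison. The shares of all genes in those DESeq2 and limma-voom fits are not given here. At CT10 other fits had more: by unadjusted p under 0.05 there were 3 genes (Sst, Vip and Npy) when only the libraries compared were fitted and 1 (Npy) with the replicate block. There were 2 without KO CT22 replicate 1 (Sst and Vip) and 2 without both libraries that went against their CT label, and in each of these fits 0 of 9 passed by adjusted p. At CT22 leaving out 1 library gave 0 to 3 of the 9 genes by unadjusted p under 0.05, again with 0 by adjusted p. The shares of all genes in those CT22 fits are not given here. The KO and WT libraries did not overlap for Sst and Vip at CT10, 2 of 9 genes, where 10.3% of all genes did not overlap in either direction. That layout follows the CT labels as given. The library labelled KO CT22 replicate 1, whose clock genes went against its label, had 124 CPM of Sst and 7.21 CPM of Vip. Both values lay below those of every WT CT10 library. At CT22 they overlapped for all 9, against a share of 13.7% of all genes without overlap. The median log2 change of the 9 was −0.22 at CT22 and 0.13 at CT10, while over all genes tested it was 0.00 at both.

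Sst, Pvalb, Npy and Vip had a negative log2 change at CT22 and a positive one at CT10, as did 26.8% of all genes tested. The test of the difference between the KO effects (CT22 minus CT10) gave −0.92 for Vip (95% interval −1.80 to −0.04), −0.85 for Sst (−1.72 to 0.01) and −0.66 for Pvalb (−1.33 to 0.01) on the log2 scale. All 3 had an adjusted p of 0.737 in edgeR's quasi-likelihood test, so the difference was not established for any of them. By unadjusted p under 0.05, 1 of 9 passed (Vip), against 6.09% of all genes, and by adjusted p 0 of 9, against 0% of all genes. DESeq2 and limma-voom each had 3 of 9 by unadjusted p and 0 by adjusted p. The 6.09% is edgeR's share, and the shares of all genes in those other fits are not given here. Without the libraries labelled KO CT22 replicate 1 and KO CT10 replicate 3 the differences were −0.39 for Vip, −0.56 for Sst and −0.41 for Pvalb. In the same fit the CT22 log2 changes were −0.09 for Vip, −0.10 for Sst and −0.12 for Pvalb, and those at CT10 were 0.30, 0.46 and 0.29. For the other genes the CT22 values were 0.03 for Npy, −0.24 for Cck, −0.11 for Calb2, 0.55 for Reln, 0.09 for Lhx6 and −0.12 for Htr3a. Their CT10 values in that fit were 0.32 for Npy, −0.04 for Cck, −0.11 for Calb2, 0.03 for Reln, 0.05 for Lhx6 and −0.07 for Htr3a. With all libraries the CT22 values were −0.42 for Vip, −0.38 for Sst and −0.38 for Pvalb, so without the pair they lay nearer to 0. Htr3a at CT22 and Vip, Calb2, Reln and Htr3a at CT10 were also nearer to 0 than with all libraries. Cck and Reln at CT22, Npy, Pvalb and Cck at CT10, and Lhx6 under both labels lay farther from 0.

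**Figure D3:**
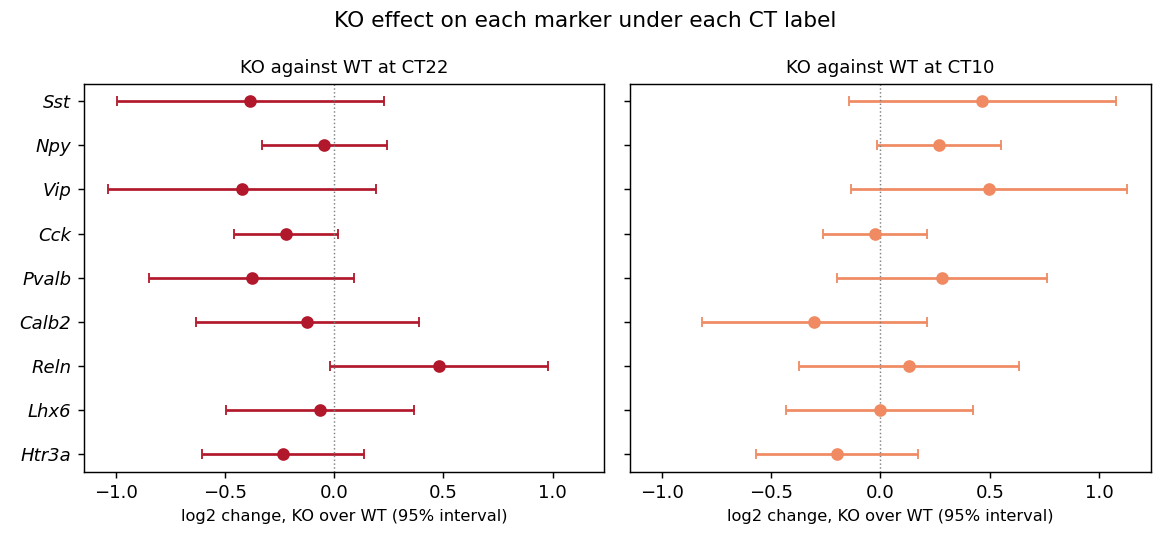
Log2 change of KO over WT for each interneuron marker at CT22 and at CT10 (points) with its 95% interval (bars) from the edgeR model. All 18 intervals include 0, and for Sst, Vip, Pvalb and Npy the points lie on opposite sides of 0 under the CT labels.

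The CT labels were then compared within each genotype. In WT the CT22 libraries lay above all CT10 libraries for Sst, Pvalb and Vip, 3 of 9 genes, where 7.69% of all genes did so. The log2 change of CT22 against CT10 in WT was 0.73 for Vip (95% interval 0.11 to 1.34), 0.58 for Pvalb (0.11 to 1.05) and 0.61 for Sst (−0.000894 to 1.22), each with adjusted p = 0.722 in edgeR's quasi-likelihood test. In the same WT comparison 1 of 10 dentate granule markers had a log2 change above 0 (median −0.33) and 13 of 15 neocortex markers did (median 0.14), and their part in the values of Sst, Pvalb and Vip was not tested. By unadjusted p 2 of 9 genes, Pvalb and Vip, were under 0.05 in edgeR, against 6.76% of all genes, and by adjusted p 0 of 9, against 0% of all genes. DESeq2 had 3 of 9 and limma-voom 2 of 9 by unadjusted p, and both had 0 by adjusted p. The 6.76% is edgeR's share, and the shares of all genes in those other fits are not given here. In KO the log2 changes were −0.19 for Vip, −0.08 for Pvalb and −0.24 for Sst, and 0 of 9 genes passed by adjusted p (0% of all genes) or by unadjusted p (3.16%) in edgeR. DESeq2 had 1 gene and limma-voom 0 by unadjusted p there, again without a share over all genes, and neither had any by adjusted p. In KO, under the CT labels as given, Reln alone had all CT22 libraries above all CT10 libraries. It was 1 of 9 genes, against 4.3% of all genes (log2 change 0.42, 95% interval −0.08 to 0.92, adjusted p = 0.977 in edgeR's quasi-likelihood test). Without the pair of libraries that went against their CT label the KO values turned to 0.35 for Vip, 0.17 for Pvalb and 0.06 for Sst, and Reln stood at 0.60. In that fit, where the WT log2 changes stayed at 0.73, 0.58 and 0.62 for Vip, Pvalb and Sst, the adjusted p values were 0.350, 0.353 and 0.362. The WT comparison shares its libraries with the KO comparisons above, so these values are not separate evidence.

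Interneuron markers varied widely among libraries of the same group. The SD of log2 CPM within groups was 0.38 for Sst, where counting error alone gives 0.03 and genes of similar level had a median of 0.12. That placed Sst at the 98.7th percentile of 1000 genes of similar level. Part of the Sst spread came from the library labelled KO CT22 replicate 1, at 124 CPM against 276 and 259 CPM in the others of its group. The same library was lowest for Pvalb and Vip, and no SD without it was computed. Reln (SD 0.33) stood at the 96.9th percentile of its own comparison set, Calb2 (0.34) at the 96.8th, Vip (0.42) at the 96.1st, Pvalb (0.32) at the 94.8th and Lhx6 (0.29) at the 91.4th. Npy (0.19), Htr3a (0.23) and Cck (0.15) were less variable, at the 80.3rd, 73.2nd and 70.8th percentiles.

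Some pairs of genes varied together or inversely by Pearson correlation, but no pair passed by both measures. Over the 12 libraries Sst and Pvalb correlated at Pearson r = 0.85 (permutation p = 0.0005, adjusted p = 0.0112) and Spearman rho = 0.83 (permutation p = 0.00142, adjusted p = 0.0511). Sst and Vip correlated at r = 0.85 (permutation adjusted p = 0.0112) and rho = 0.74 (0.0678), and Pvalb and Vip at r = 0.82 (0.0156) and rho = 0.76 (0.0678). Cck and Reln were inversely related, at r = −0.80 (permutation adjusted p = 0.0161) and rho = −0.76 (0.0678). P-values were adjusted over the 36 pairs of members: 4 pairs passed by Pearson and 0 by both measures. Without the 2 libraries farthest from the median of the first gene, r was 0.72 for Sst and Pvalb, 0.72 for Sst and Vip, 0.52 for Pvalb and Vip, and −0.66 for Cck and Reln. As deviations from the group means they were 0.79, 0.76, 0.71 and −0.77.

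Markers of the dentate granule cells, the principal neurons of the dentate gyrus, moved with the same libraries. The score of these 10 markers (mean log2 CPM relative to the 12 libraries) was highest, at 0.82, in the library labelled KO CT22 replicate 1, which had the least Sst, Pvalb and Vip. It was lowest, at −0.61, in WT CT22 replicate 1, which had the most Sst and Vip. None of the 10 was at 0, and their summed CPM ran from 551 to 1335 in KO CT22 and 498 to 805 in WT CT22, and from 658 to 832 in KO CT10 and 755 to 877 in WT CT10. Relative to WT, 10 of 10 had a positive log2 change in KO at CT22 and 1 of 10 at CT10. The score correlated with Sst at r = −0.88 (permutation p = 9e-05, adjusted p = 0.00675) and rho = −0.87 (permutation adjusted p = 0.0165). It correlated with Pvalb at r = −0.79 and rho = −0.83 (permutation adjusted p = 0.0259 and 0.0302) and with Lhx6 at r = −0.74 and rho = −0.79 (permutation adjusted p = 0.0389 and 0.0474). With Vip the relation was r = −0.77 (permutation adjusted p = 0.0405) and rho = −0.64 (0.204). Without the 2 libraries farthest from the median score r was −0.65 for Sst, −0.66 for Pvalb, −0.59 for Lhx6 and −0.39 for Vip, so the relation of Vip rests on those libraries. Within groups, as deviations from the group means, r was −0.91 for Sst, −0.78 for Pvalb, −0.80 for Lhx6 and −0.76 for Vip. For the other 5 genes r lay between −0.38 and 0.04. These values were adjusted over 90 relations of list scores with members, of which 7 passed by Pearson and 6 by both measures. Prox1 of the dentate list is also expressed in caudal eminence interneurons. The part of dentate tissue in the interneuron values was not tested.

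**Figure D4:**
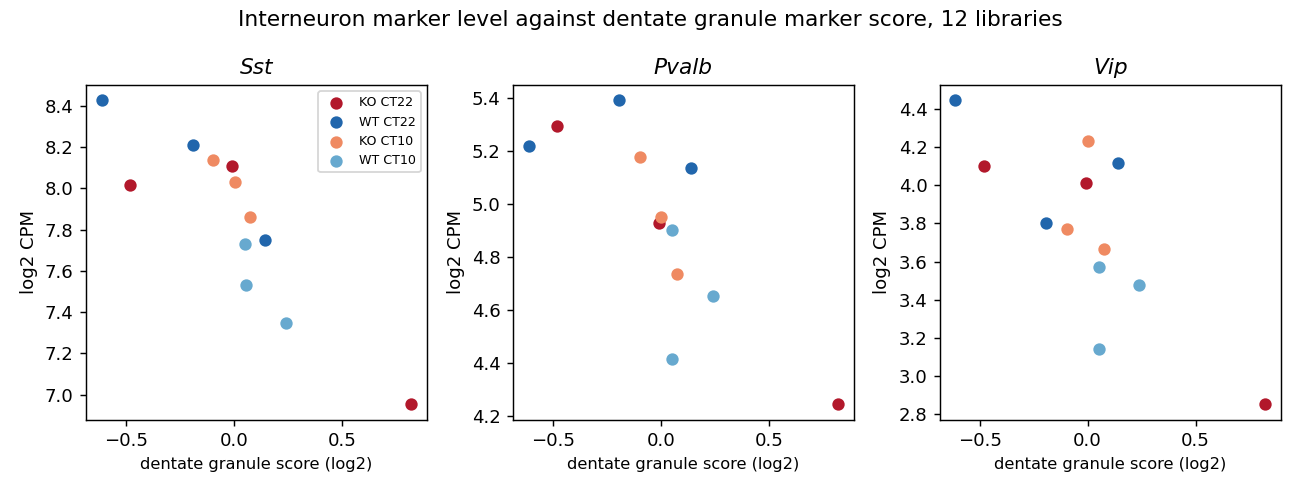
Log2 CPM of Sst, Pvalb and Vip against the dentate granule score (log2) in the 12 libraries, coloured by group. The library labelled KO CT22 replicate 1 lies at the lower right of each panel (score 0.82). No slope was fitted for either genotype.

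Reln and Cck moved instead with the balance of long and short transcripts. Reln has the longest transcript of the 9, 11698 bases, and Cck one of 686 bases. Those of Npy (545 bases) and Sst (599 bases) are shorter still. The balance of long and short transcripts in a library was taken as the mean log2 CPM of 609 genes of at least 8000 bases minus that of 891 genes of at most 1000 bases. It was 0.37, 0.12 and 0.26 in KO CT22, against 0.13, −0.14 and −0.51 in WT CT22. In the CT10 libraries it was 0.17, −0.46 and 0.12 in KO, against 0.06, 0.01 and −0.13 in WT. The balance was thus higher in 2 of the 3 KO CT22 libraries, and in KO CT10 replicate 1, than in any WT library. It correlated with Reln at r = 0.89 (permutation p = 0.00015, adjusted p = 0.00675) and rho = 0.87 (permutation adjusted p = 0.0165), and with Cck at r = −0.85 and rho = −0.81 (permutation adjusted p = 0.0087 and 0.0358). Without the 2 libraries farthest from the median balance r was 0.70 for Reln and −0.73 for Cck. As deviations from the group means r was 0.88 and −0.81. The shorter transcripts of Npy and Sst gave r = −0.62 and −0.37 (permutation adjusted p = 0.235 and 0.487). Without the 2 farthest libraries their r was 0.09 and −0.11, and as deviations −0.83 and −0.23. The balance was added after the levels had been seen, and its part in the values of the members was not tested. The members were left out of it. How many other long or short genes correlated with it as strongly is not given here, so these p-values do not set Reln or Cck apart from them.

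**Figure D5:**
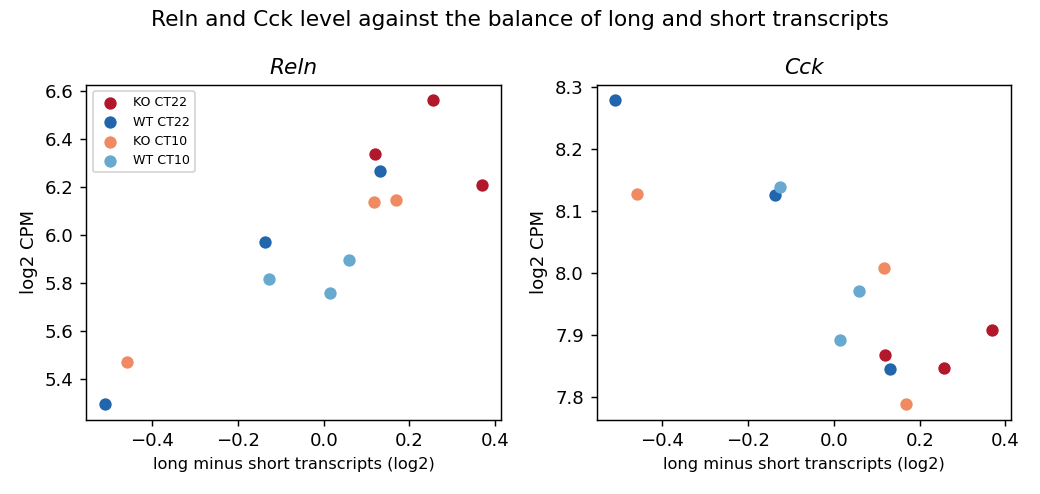
Log2 CPM of Reln and of Cck against the balance of long and short transcripts (log2) in the 12 libraries, coloured by group. Reln rises and Cck falls along the axis, with WT CT22 replicate 3 (−0.51) at the left end and the library labelled KO CT22 replicate 1 (0.37) at the right end.

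Reln also correlated with markers of the thalamus and habenula, which border the hippocampus, at r = 0.80 and rho = 0.90 (permutation adjusted p = 0.0259 and 0.0126). Without the 2 libraries farthest from the median score r was 0.71, and as deviations from the group means 0.68. With striatum markers the relation of Reln was r = 0.74 and rho = 0.78 (permutation adjusted p = 0.0561 and 0.0474), 0.61 without the 2 farthest libraries and 0.53 as deviations. With neocortex markers it was r = 0.68 and rho = 0.70 (permutation adjusted p = 0.144 and 0.151), 0.59 without the 2 farthest and 0.62 as deviations. The 17 thalamus and habenula markers in the files summed to 85.5 to 163 CPM in KO CT22 and 72.3 to 82.7 CPM in WT CT22, and to 62.5 to 101 CPM in KO CT10 and 60.2 to 84.6 CPM in WT CT10. Pou4f1, a defining habenular factor, was at 0 in all libraries of 3 groups, and of the 10 markers that passed the filter 10 had a positive averaged log2 change (median 0.41). Their part in the Reln values was not tested. Cajal-Retzius markers, another source of Reln and Calb2, were low: 6 markers summed to 21.6 to 22.9 CPM in KO CT22 and 14.8 to 24.6 CPM in WT CT22, and to 16.8 to 21.4 CPM in KO CT10 and 18.3 to 21.1 CPM in WT CT10.

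Other genes of the same cells and pathways were read from lists, and 0 genes of any list below passed an adjusted p of 0.05 in edgeR's test of KO against WT averaged over the CT labels. GABA synthesis and transport had 3 of 6 genes higher and 3 lower, with a median log2 change of 0.01, beside 0.01 over all genes. Gad1, the main GABA-synthesising enzyme, stood at 385 ± 35.3 CPM in KO and 352 ± 26.3 CPM in WT (SD, n = 6 each; log2 change 0.13, adjusted p = 0.801). Slc6a11, the GABA transporter GAT-3 of astrocytes, stood at 190.3 ± 17.3 CPM in KO and 228 ± 17.9 CPM in WT (log2 change −0.26, adjusted p = 0.430). Of that list these had the smallest p-values. Interneuron transcription factors other than Lhx6 had 10 genes higher and 7 lower of 17, with a median of 0.01. Satb1, a factor of medial eminence interneurons, had a log2 change of 0.26 (adjusted p = 0.801).

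Other genes of parvalbumin and somatostatin cells had 14 of 16 log2 changes above 0 (median 0.14), of which Kcnc1, the fast potassium channel Kv3.1, had 0.16 (adjusted p = 0.713) and Crhbp, which binds corticotropin-releasing hormone, 0.22 (adjusted p = 0.752). Other genes of caudal eminence interneurons had 10 of 12 above 0 (median 0.19). Among them Cnr1, the cannabinoid receptor of CCK basket cells, stood at 208 ± 16.3 CPM in KO and 180.4 ± 21.0 CPM in WT (log2 change 0.21, adjusted p = 0.703). Slc17a8, the glutamate transporter VGLUT3 of the same cells, stood at 7.34 ± 1.41 CPM in KO and 5.30 ± 1.22 CPM in WT (log2 change 0.47, adjusted p = 0.705; SD, n = 6 each). By label, the parvalbumin and somatostatin list had 8 of 16 above 0 at CT22 (median −0.01) and 12 of 16 at CT10 (median 0.15). The caudal eminence list had 9 of 12 at CT22 (median 0.07) and 11 of 12 at CT10 (median 0.16). Over all genes tested 51.8% were above 0 in the averaged comparison.

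Receptors for the peptides and reelin had 11 of 13 log2 changes above 0 (median 0.08), with Cckbr, a cholecystokinin receptor, at 0.27 (adjusted p = 0.801) and the reelin receptor gene Lrp8 at 0.14 (adjusted p = 0.832). By label, 11 of 13 were above 0 at CT22 (median 0.16) and 5 of 13 at CT10 (median −0.03). Neuropeptide processing had 3 of 10 above 0 and 7 below (median −0.08). Cpe, the carboxypeptidase that trims peptide precursors, stood at 2919 ± 248 CPM in KO and 3381 ± 171 CPM in WT (SD, n = 6 each; log2 change −0.21, adjusted p = 0.506), and Scg5, a chaperone of a prohormone convertase, had a log2 change of −0.19 (adjusted p = 0.730). The perineuronal net, the matrix around parvalbumin cells, had 5 of 8 above 0 (median 0.04), with Bcan at −0.12 (adjusted p = 0.806) and Ncan at 0.10 (adjusted p = 0.819). At CT22 6 of its 8 genes were above 0 (median 0.15) and at CT10 2 of 8 (median −0.09).

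Markers of other cells and neighbouring tissue gave the following values for KO against WT, averaged over the labels. The log2 change was above 0 for 4 of 4 Cajal-Retzius markers, 3 of 5 mossy cell markers, 9 of 10 dentate granule markers, 6 of 14 CA pyramidal markers, 11 of 15 neocortex markers, 6 of 8 striatum markers, 14 of 14 choroid plexus markers and 4 of 12 astrocyte markers. The medians were 0.13, 0.01, 0.10, −0.02, 0.16, 0.30, 1.24 and −0.14 in that order. Choroid plexus markers were the most uneven, with 231 to 5280 summed CPM in KO CT22 and 399 to 2179 CPM in WT CT22, and with 374 to 4860 CPM in KO CT10 and 338 to 2083 CPM in WT CT10. No relation of their score with any of the 9 genes passed by either correlation.

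For each gene the 2 genes with the most similar profile were found by the root mean square difference of centred log2 CPM over the 12 libraries. For Sst these were Fezf2, a transcription factor that marks deep-layer neocortex neurons (0.16), and Ptpru (0.16), against a median of 0.43 over all genes. For Vip they were Mpped1, a marker of CA pyramidal cells, and Sorcs1 (0.16 and 0.17, median 0.47). For Pvalb they were the oligodendrocyte-lineage genes Cryab and Sox10 (0.14 and 0.15, median 0.38). The score of the 14 CA pyramidal markers, which include Mpped1, correlated with Vip at r = −0.38 (permutation adjusted p = 0.487). That of the neocortex markers, which include Fezf2, correlated with Sst at r = 0.49 (permutation adjusted p = 0.416). Reln was nearest to Smg1 and Mdn1 (0.11 for both, median 0.39), whose transcripts of 15553 and 17959 bases are also long. Cck was nearest to Mtch1 and B3gat3 (0.05 for both, median 0.23), whose transcripts of 1918 and 1584 bases are longer than that of Cck. Those of Fezf2 and Ptpru, nearest to Sst, have 2304 and 5504 bases and are longer than that of Sst. Npy was nearest to Glrx3 and Acaa1a (0.08 and 0.09), Calb2 to Wnt4 and Vcam1 (0.16 for both), Lhx6 to Rwdd2a and Dctd (0.11 for both) and Htr3a to Morn2 and Cd53 (0.07 and 0.11). Being the smallest over all genes, the distances printed lie below the medians by construction. Likeness to a tissue or cell type was not tested.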

How the data were processed

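The submitters' processing notes name FastQC and TopHat 1.3.3, then RSEM 1.2.5, edgeR 3.0.6 and the build mm10. The libraries were stranded, per the labels' protocols. The sources used here do not tell if counting was by strand, so antisense genes annotated at Htr3a and Reln cannot be separated. Each library's deposited file holds estimated counts and TPM for 30383 transcripts, per the file headers. A deposited table of KO against WT holds the authors' log2 ratio, p-values and 12 columns of normalised signal, per the file headers. The signal columns were not analysed here.

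Estimated counts were summed per gene, rounded to whole numbers, filtered (filterByExpr, minimum count 10, leaving 14131 genes) and scaled by TMM (factors 0.979 to 1.02). Tests ran in edgeR 4.0.16 (R 4.3.3): 1 robust quasi-likelihood model, 4 group means, 12 libraries, 8 residual degrees of freedom, a coefficient of biological variation of 12.3%. P-values were adjusted over all genes (Benjamini-Hochberg, threshold 0.05). Tests were tried on simulated data. DESeq2 1.42.0, limma-voom (limma 3.58.1), other scaling, no filter, a replicate block and libraries left out were alternatives. Correlations used 100000 permutations. Lowest depth was 4435606 counts, where counting error is largest; reads carried no molecular identifiers.

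Members, lists and rules were chosen with earlier results of these data known. The naming rule took Nono, all members, the 2 genes of smallest p per list (1 gene so chosen is not reported here) and the 2 most similar genes per member; Dbp, Nr1d1 and Pou4f1 were named after their values were seen. Same-numbered libraries were not taken as pairs. Sequences came from RefSeq tables; 2 members, Calb2 and Htr3a, had no promoter entry.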

Additional observations from a re-analysis of the deposited data

Results flagged for a closer look

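Sst stood at 124.0 CPM in the library labelled KO CT22 replicate 1, the lowest of the 6 KO libraries. The gap to the next library was 0.691 of the whole range, above Dixon's 95% critical value for 6 samples. It was found among 18 sets tested, 9 genes in each genotype, and chance flags about 1 in 20. The same library had the highest dentate granule score, 0.82, and its clock genes went against its CT label, with Dbp at 90.9 CPM. The part of either in the Sst value was not tested.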

How the results depend on the processing

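In 1062 recomputed log2 changes of the members, 994 kept their sign and 68 reversed, and 0 passed an adjusted p of 0.05 (lowest 0.161). Of the reversals, 55 came from leaving out 1 library, in 21 of 54 values. Those ranges, for KO against WT averaged, were −0.06 to 0.18 for Sst, −0.20 to 0.08 for Pvalb, −0.10 to 0.20 for Vip and −0.12 to 0.04 for Lhx6. At CT10 they were −0.10 to 0.07 for Cck and −0.16 to 0.10 for Lhx6. At CT22 they were −0.15 to 0.11 for Npy, −0.32 to 0.01 for Calb2 and −0.23 to 0.09 for Lhx6. For CT22 against CT10 in KO they were −0.44 to 0.04 for Sst, −0.38 to 0.17 for Pvalb, −0.47 to 0.14 for Vip, −0.05 to 0.28 for Calb2 and −0.26 to 0.06 for Lhx6. In WT they were −0.01 to 0.21 for Cck, −0.15 to 0.20 for Calb2, −0.15 to 0.30 for Reln and −0.19 to 0.10 for Lhx6. For the difference of the KO effects they were −0.06 to 0.32 for Calb2, −0.23 to 0.09 for Lhx6 and −0.30 to 0.09 for Htr3a. Without KO CT22 replicate 1 the averaged Sst value was 0.18.

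Leaving out both KO libraries that went against their CT label was chosen after seeing the data. It reversed Pvalb (0.08) and Lhx6 (0.07) averaged, Lhx6 at CT10 (0.05), Npy (0.03) and Lhx6 (0.09) at CT22, Sst (0.06), Pvalb (0.17), Vip (0.35), Calb2 (−0.03) and Lhx6 (0.01) for CT22 against CT10 in KO, and Lhx6 (0.03) in the difference. Limma-voom reversed Vip averaged (−0.04). The cause of these reversals was not tested.

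Counts of genes past the threshold moved. Averaged, 3 genes passed, with 22 in DESeq2, 10 with no filter on low counts, 1 with the replicate block, 1 without both KO libraries and 1 to 8 without a library. At CT10 1 passed, with 3 in DESeq2 and 4 when only the libraries compared were fitted. At CT22 2 passed, with 30 in DESeq2, 1 with the block, 1 with only the libraries compared, 1 without both and 1 to 4 without a library. For CT22 against CT10 in WT 0 passed, with 4 in DESeq2, 2 with only the libraries compared, 1 without both and 0 to 1 without a library. In KO 0 passed, and 1 without both.

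Same-numbered libraries did not deviate together: 18 same-number pairs correlated at −0.237 to 0.328, 4 over 0.1, and 4 of 12 libraries correlated best with their own number. The replicate block reversed Lhx6 at CT10 (0.0048) and called 0 members. Fitting only the libraries compared changes nothing in the averaged comparison and the difference, which use all 12.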

Other observations

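Lhx6 and Htr3a were the members with more than 1 counted transcript. The main Htr3a form made up 93.1 ± 4.58% of the estimated counts of the gene in KO and 96.5 ± 3.83% in WT (SD, n = 6 each). Of 4 Lhx6 forms, the most used made up 54.3 ± 11.9% in KO and 51.7 ± 7.60% in WT. A second, with the upstream start, made up 22.8 ± 12.3% in KO and 17.8 ± 9.05% in WT. These shares overlapped between the genotypes, and no test of them was run.

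Among the markers of other cells, the genes with the smallest p-values for KO against WT averaged over the CT labels did not pass edgeR's quasi-likelihood test either. Of the CA pyramidal markers, Fibcd1 of CA1 stood at 180.9 ± 37.4 CPM in KO and 234 ± 60.5 CPM in WT (SD, n = 6 each; log2 change −0.36, adjusted p = 0.703), and Map3k15 of CA2 had a log2 change of 0.55 (adjusted p = 0.634). Prox1 and Pdzd2 of the dentate list had 0.38 and 0.23 (adjusted p = 0.817 for both), and Trp73 and Eomes of Cajal-Retzius cells 0.24 and 0.47 (adjusted p = 0.861 and 0.866). Ociad2 and Calcrl of mossy cells had −0.14 and 0.19 (adjusted p = 0.780 and 0.838). Of the neighbouring tissues, Cux2 and Tle4 of neocortex had 0.37 and 0.15 (adjusted p = 0.705 and 0.761), Synpo2 and Tcf7l2 of thalamus 0.43 and 0.47 (0.730 and 0.762), Pde10a and Drd1a of striatum 0.39 and 0.61 (0.577 and 0.727), and Prlr and Sostdc1 of choroid plexus 1.298 and 1.001 (0.817 for both). The astrocyte genes S100b and Sox9 had −0.41 and 0.33 (adjusted p = 0.0696 and 0.460).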
